A study of Mus musculus with 8 samples.

Results

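The 10 genes described here encode the carriers that bring sugars, peptides and amino acids into intestinal and growing cells. They were chosen by symbol, and each matched 1 row among the 48413 gene rows of the deposited sheet. RNA was measured in adenomas of the small intestine from 4 ApcMin/+/14-3-3σ-/- mice, called knockout here, and from 4 ApcMin/+ mice, with 1 adenoma library per mouse on a C57BL/6 background. The ApcMin/+ mice, and the knockout mice too, carry the Min allele of the tumour suppressor gene Apc, which truncates its protein and gives rise to intestinal polyps, and the knockout mice also lack both copies of Sfn, the gene of 14-3-3σ. The knockout mice were 144 to 148 days old and the ApcMin/+ mice 256 to 282 days old, so genotype and age cannot be told apart. The labels state neither how the 14-3-3σ allele was made, nor the sex of the mice, nor where along the small intestine each adenoma lay. The comparison asked which transcripts differ between adenomas without and with 14-3-3σ.

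Sugar uptake by small intestinal enterocytes runs through an apical sodium-glucose cotransporter and an apical fructose carrier, and a basolateral carrier lets sugars out toward the blood. Peptides enter with protons through 1 apical carrier, and free amino acids through several, some of which are pairs of a light chain, which forms the pore, and a heavy chain, which brings it to the membrane. Absorption belongs to mature villus cells, whereas the carriers of large neutral amino acids and glutamine that dividing cells use are found in many tissues and tumours. The 7 genes of the first kind, Slc5a1, Slc2a5, Slc2a2, Slc15a1, Slc6a19, Slc7a9 and Slc3a1, are called uptake genes here, and Slc7a5, Slc3a2 and Slc1a5 growth genes.

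Sfn itself checked the labels, with normalised read counts of 0 to 1 in knockout libraries and 6585 to 15968 in ApcMin/+ libraries (two-sided exact permutation test, p = 0.0286, the smallest that 70 arrangements can give). Library totals on the normalised scale were 34182800 to 46707800, and as the raw depth is unknown no counting interval is given. Xist, transcribed from the inactive X, stood at 34488 in 1 knockout library and at 30984 and 12334 in ApcMin/+ replicates 2 and 3, and at 18 or below in the other 5. The mouse number on that knockout column belongs to an ApcMin/+ mouse in the labels, so the column is used by its genotype only, under the name of unnumbered knockout library. Ddx3y, a gene of the Y chromosome, was at 0, 0 and 2 in the 3 libraries with high Xist and at 1435 to 2132 in the other 5. By these genes the Xist split matches female against male mice, though the labels do not give sex. The 20 enterocyte markers examined were all measured, and their summed level ranged between 494659 and 731837 in knockout libraries and between 296179 and 898442 in ApcMin/+ libraries.

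No transporter gene passed the test for a difference between genotypes. With limma on log2(value + 1) and Benjamini-Hochberg adjustment over 17523 genes, 0 of the 10 passed an adjusted p of 0.05, against 58 of all tested genes (0.331%), and 0 of the 10 had an unadjusted p under 0.05, against 3319 of all tested genes. The knockout and ApcMin/+ values overlapped for all 10, whereas 2816 of the tested genes (16.1%) showed no overlap. The fitted log2 difference, knockout minus ApcMin/+, was above 0 for 7 transporters and below 0 for 3, with a median of 0.18 over the 10 and -0.07 over all tested genes. Of all tested genes, 7178 lay above 0 and 10345 below. The uptake genes spread widely among ApcMin/+ adenomas, where their highest and lowest libraries differed by 2.08 to 10.5 fold, against 1.15 to 1.97 fold among knockout adenomas. The library values behind these statements follow by role, listed for the unnumbered knockout library and knockout replicates 2, 3 and 4, and for ApcMin/+ replicates 1 to 4.

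**Figure D1:**
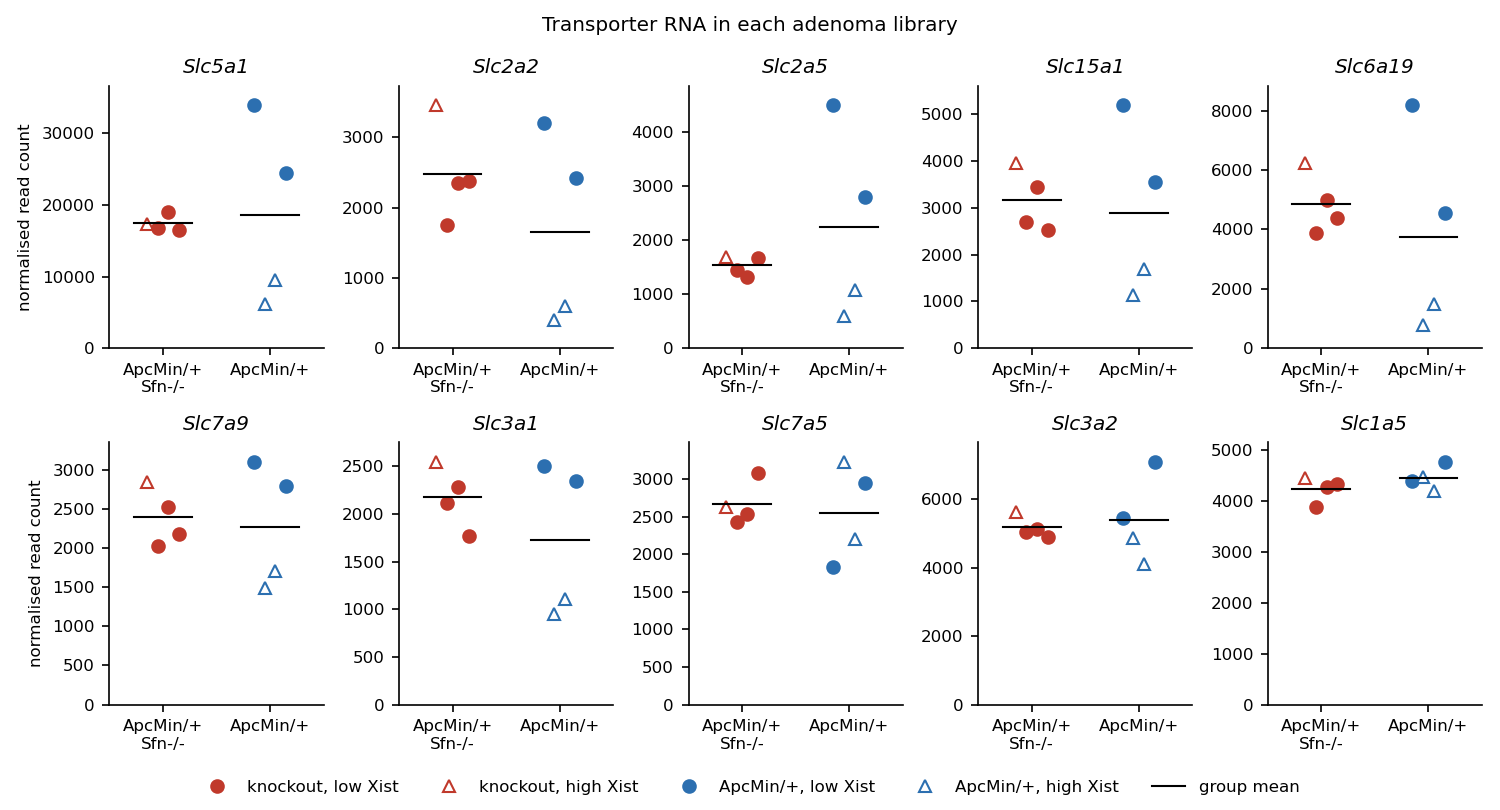
Normalised read count of each transporter gene in each of 8 adenoma libraries, with ApcMin/+ Sfn-/- (knockout) at the left and ApcMin/+ at the right of each panel; lines are group means, and triangles mark the 3 libraries with high Xist. For the 7 uptake genes all 4 knockout libraries lie above the 2 ApcMin/+ libraries with high Xist, and replicate 1 is the highest ApcMin/+ library.

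Because the uptake genes were high and low in the same ApcMin/+ libraries, 4 of their promoter windows are shown, those of the apical and basolateral sugar carriers and of the light and heavy chains of the cystine carrier. Each runs 5′ to 3′ on the strand of the gene, and covers 250 bases before to 50 after the transcript start, from RefSeq on GRCm38.p6. The windows are chr5:33103969-33104268 (+) for Slc5a1, chr3:28697653-28697952 (+) for Slc2a2, chr7:35448842-35449141 (+) for Slc7a9, the first of 2 windows of that gene, and chr17:85028097-85028396 (+) for Slc3a1. Capitals mark an E-box, CACGTG, in Slc5a1 and the reverse complement of GTTAAT, a half-site of the enterocyte and kidney factor HNF1, in Slc3a1.
Slc5a1: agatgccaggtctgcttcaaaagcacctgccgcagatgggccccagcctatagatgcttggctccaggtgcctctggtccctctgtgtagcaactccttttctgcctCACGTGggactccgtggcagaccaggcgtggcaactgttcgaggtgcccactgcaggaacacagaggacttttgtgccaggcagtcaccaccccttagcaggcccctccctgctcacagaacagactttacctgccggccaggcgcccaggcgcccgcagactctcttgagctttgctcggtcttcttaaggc
Slc2a2: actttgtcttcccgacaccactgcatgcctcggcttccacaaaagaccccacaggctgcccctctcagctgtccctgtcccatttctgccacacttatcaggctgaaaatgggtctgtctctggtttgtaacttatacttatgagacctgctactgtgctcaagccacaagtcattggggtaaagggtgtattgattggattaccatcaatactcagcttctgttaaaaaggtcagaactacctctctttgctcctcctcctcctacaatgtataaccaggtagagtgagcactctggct
Slc7a9: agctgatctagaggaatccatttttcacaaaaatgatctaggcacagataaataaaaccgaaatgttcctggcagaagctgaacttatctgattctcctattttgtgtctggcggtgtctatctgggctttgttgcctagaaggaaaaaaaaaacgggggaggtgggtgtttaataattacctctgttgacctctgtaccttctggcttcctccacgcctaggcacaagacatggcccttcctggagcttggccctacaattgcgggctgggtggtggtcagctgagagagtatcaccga
Slc3a1: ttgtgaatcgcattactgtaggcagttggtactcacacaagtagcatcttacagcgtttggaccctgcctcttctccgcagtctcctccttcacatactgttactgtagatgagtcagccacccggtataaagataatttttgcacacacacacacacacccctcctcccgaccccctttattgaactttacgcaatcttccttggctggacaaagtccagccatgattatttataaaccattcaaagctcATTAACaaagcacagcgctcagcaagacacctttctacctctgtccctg
The letters GTTAAT, on either strand, occurred in 1 of the 9 windows of 8 transporter genes in the table (Slc3a1) and in 7.1% of 32851 mouse promoter windows of the same length. CACGTG, a palindrome, occurred in 1 of the 9 windows (Slc5a1), at base -143 where the start is 0, and in 7.15% of all windows. TGATGNAA, the element bound by C/EBP and ATF factors in the amino acid response, occurred in 0 of the 9 windows on either strand and in 3.97% of all windows. The motifs do not overlap each other, and a match is a description of the letters in these windows.

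Slc5a1 (chromosome 5, 33104219 to 33162870, GRCm38) encodes SGLT1, the apical cotransporter of sodium with glucose or galactose. It had 17409, 16820, 19018 and 16517 normalised read counts in knockout libraries, against 33890, 6229, 9559 and 24503 in ApcMin/+ libraries. All knockout values lay inside the ApcMin/+ range, above replicates 2 and 3 and below replicates 1 and 4. The mean was 17441 ± 1115 in knockout and 18545 ± 12954 in ApcMin/+ adenomas (SD, n = 4 each), and the log2 difference was 0.22 (SE 0.49, 95% interval -0.89 to 1.34, limma adjusted p = 0.836). The arithmetic means and the log2 means thus differ in sign. In bulk tissue, fewer cells of a type and less RNA per cell cannot be told apart, here and for every value that follows.

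Slc2a5 (chromosome 4, 150119283 to 150144169) encodes GLUT5, the apical fructose carrier, and lies 16.5 Mb from Sfn on the same chromosome. It had 1689, 1458, 1317 and 1678 normalised read counts in knockout libraries, against 4498, 598, 1087 and 2801 in ApcMin/+ libraries. Again ApcMin/+ replicates 1 and 4 stood above every knockout library and replicates 2 and 3 below. The mean was 1536 ± 180.4 in knockout and 2246 ± 1774 in ApcMin/+ adenomas (SD, n = 4 each), with a log2 difference of -0.15 (SE 0.56, 95% interval -1.42 to 1.13, limma adjusted p = 0.910).

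Slc2a2 (chromosome 3, 28697903 to 28731359) encodes GLUT2, the facilitative carrier for glucose and fructose at the basolateral side of the enterocyte. It had 3451, 1753, 2345 and 2377 normalised read counts in knockout libraries, against 3199, 399, 605 and 2425 in ApcMin/+ libraries. The unnumbered knockout library was the highest of all, and ApcMin/+ replicates 2 and 3 were the lowest by a wide margin. The log2 difference of 1.04 was the largest of the 10, with a wide interval (SE 0.64, 95% interval -0.42 to 2.51, limma adjusted p = 0.407), and the mean was 2482 ± 707.2 in knockout and 1657 ± 1373 in ApcMin/+ adenomas (SD, n = 4 each). Without ApcMin/+ replicate 2 the log2 difference was 0.53, and without replicate 1 it was 1.53.

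Slc15a1 (chromosome 14, 121459621 to 121505252) encodes PEPT1, which takes up di- and tripeptides with protons. It had 3954, 2703, 3438 and 2533 normalised read counts in knockout libraries, against 5188, 1138, 1704 and 3553 in ApcMin/+ libraries. The unnumbered knockout library lay above ApcMin/+ replicate 4, and the other knockout libraries between the high and the low ApcMin/+ pair. The mean was 3157 ± 660.7 in knockout and 2896 ± 1844 in ApcMin/+ adenomas (SD, n = 4 each), with a log2 difference of 0.34 (SE 0.44, 95% interval -0.66 to 1.35, limma adjusted p = 0.698).

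Slc6a19 (chromosome 13, 73679745 to 73704865) encodes B0AT1, the sodium-coupled apical carrier of neutral amino acids. It had 6222, 3870, 5009 and 4386 normalised read counts in knockout libraries, against 8177, 779, 1506 and 4550 in ApcMin/+ libraries. Its 10.5-fold range among ApcMin/+ libraries was the widest of the 10 genes, and its range among knockout libraries was 1.61 fold. The mean was 4872 ± 1013 in knockout and 3753 ± 3371 in ApcMin/+ adenomas (SD, n = 4 each), with a log2 difference of 0.90 (SE 0.66, 95% interval -0.59 to 2.39, limma adjusted p = 0.476), which became 0.33 without ApcMin/+ replicate 2.

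Slc7a9 (chromosome 7, 35448796 to 35466036) encodes b0,+AT, the light chain of the apical carrier of cystine and basic amino acids. It had 2838, 2029, 2526 and 2182 normalised read counts in knockout libraries, against 3103, 1493, 1703 and 2790 in ApcMin/+ libraries. Of the uptake genes it had the narrowest range among ApcMin/+ libraries, 2.08 fold. The mean was 2394 ± 361.8 in knockout and 2272 ± 793.6 in ApcMin/+ adenomas (SD, n = 4 each), with a log2 difference of 0.13 (SE 0.25, limma adjusted p = 0.806).

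Slc3a1 (chromosome 17, 85028376 to 85064236) encodes rBAT, the heavy chain that pairs with the product of Slc7a9. It had 2547, 2114, 2281 and 1767 normalised read counts in knockout libraries, against 2505, 953, 1102 and 2344 in ApcMin/+ libraries. The knockout libraries were all above ApcMin/+ replicates 2 and 3, and overlapped replicates 1 and 4. The mean was 2177 ± 326.5 in knockout and 1726 ± 811.5 in ApcMin/+ adenomas (SD, n = 4 each), with a log2 difference of 0.45 (SE 0.33, 95% interval -0.29 to 1.20, limma adjusted p = 0.471), which became 0.21 without ApcMin/+ replicate 2. Slc3a1 overlaps Prepl on the other strand, and no source used here says whether reads were counted by strand. Prepl, a gene of a peptidase-like protein, had 1374, 1320, 1407 and 1200 normalised read counts in knockout libraries, against 1579, 1450, 1361 and 1729 in ApcMin/+ libraries, where replicates 2 and 3 were also the lower pair.

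The growth genes had smaller ranges among ApcMin/+ libraries, 1.14 to 1.77 fold. Slc7a5 (chromosome 8, 121881150 to 121907694) encodes LAT1, the light chain of an exchanger of leucine and other large neutral amino acids. It had 2622, 2435, 2536 and 3083 normalised read counts in knockout libraries, against 1829, 3231, 2200 and 2947 in ApcMin/+ libraries. Its lowest library was ApcMin/+ replicate 1, which was the highest ApcMin/+ library for all 7 uptake genes. The mean was 2669 ± 286.4 in knockout and 2552 ± 649 in ApcMin/+ adenomas (SD, n = 4 each), with a log2 difference of 0.10 (SE 0.19, 95% interval -0.33 to 0.52, limma adjusted p = 0.815). Slc7a5 overlaps the predicted gene Gm20388 on the other strand, which had 4740 to 5936 in knockout libraries and 4425 to 7600 in ApcMin/+ libraries, so without counting by strand part of either count could belong to the other.

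Slc3a2 (chromosome 19, 8706882 to 8723369) encodes CD98hc or 4F2hc, the heavy chain shared by LAT1 and several related light chains. It had 5619, 5054, 5139 and 4905 normalised read counts in knockout libraries, against 5439, 4876, 4115 and 7097 in ApcMin/+ libraries. ApcMin/+ replicates 2 and 3 lay below the narrow knockout range, replicate 1 within it and replicate 4 above it. The mean was 5179 ± 308.7 in knockout and 5382 ± 1266 in ApcMin/+ adenomas (SD, n = 4 each), with a log2 difference of -0.03 (95% interval -0.40 to 0.35, limma adjusted p = 0.944), a sign that turned under median-ratio scaling (0.033) and quantile normalisation (0.039).

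Slc1a5 (chromosome 7, 16781340 to 16798274) encodes ASCT2, a sodium-dependent exchanger of glutamine and other neutral amino acids. It had 4446, 3884, 4260 and 4333 normalised read counts in knockout libraries, against 4394, 4472, 4185 and 4765 in ApcMin/+ libraries. It was the most even of the 10 genes among ApcMin/+ libraries, with a range of 1.14 fold there and of 1.15 fold among knockout libraries. The mean was 4231 ± 243.5 in knockout and 4454 ± 240.1 in ApcMin/+ adenomas (SD, n = 4 each). The log2 difference was -0.07, and its 95% interval of -0.29 to 0.14 was the narrowest of the 10 (limma adjusted p = 0.697).

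**Figure D2:**
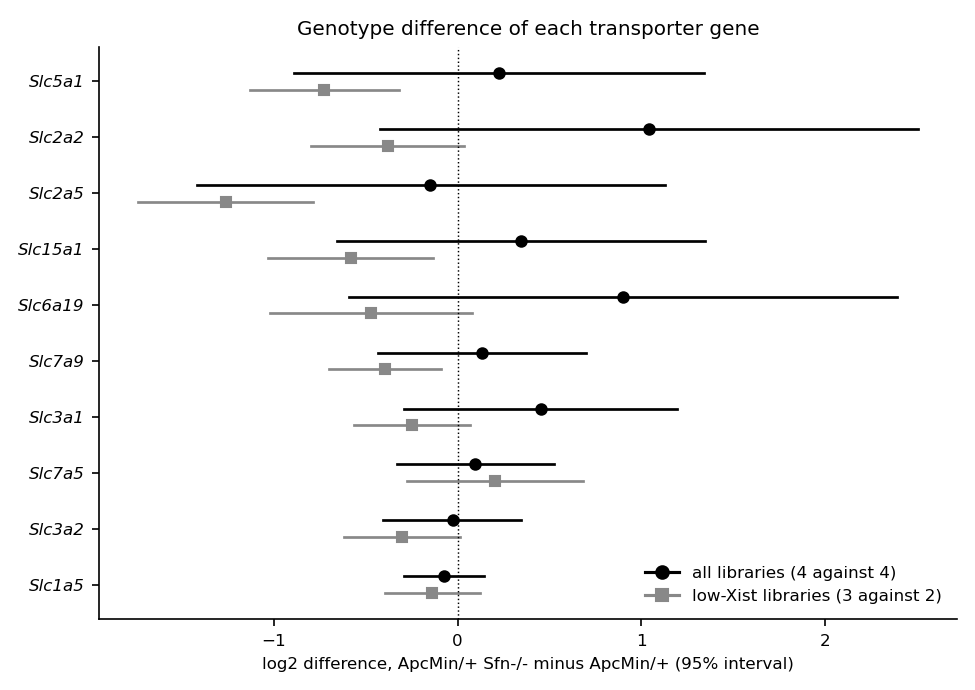
Log2 difference, knockout (ApcMin/+ Sfn-/-) minus ApcMin/+, of each transporter gene with its 95% interval from limma; black circles use all 8 libraries (4 against 4) and grey squares the 5 libraries with low Xist (3 against 2). Over all libraries every interval includes 0, from the widest of Slc2a2 and Slc6a19 to the narrowest of Slc1a5. In the low-Xist libraries 9 of the 10 differences are below 0, against 10737 of 17523 tested genes.

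The spread among ApcMin/+ adenomas followed a common pattern. The order of ApcMin/+ libraries from high to low was replicate 1, 4, 3 and 2 for 7 of the 10 transporters, which are the 7 uptake genes, and for 1794 of 17523 tested genes (10.2%). The SD of the log2 level among ApcMin/+ libraries was 1.14 for Slc5a1, 1.47 for Slc2a2, 1.31 for Slc2a5, 0.99 for Slc15a1, 1.53 for Slc6a19, 0.52 for Slc7a9 and 0.72 for Slc3a1. Among knockout libraries it was 0.09 for Slc5a1, 0.40 for Slc2a2, 0.17 for Slc2a5, 0.30 for Slc15a1, 0.29 for Slc6a19, 0.22 for both Slc7a9 and Slc3a1. Over all tested genes the median SD was 0.19 among knockout and 0.25 among ApcMin/+ libraries, and over the 10 transporters it was 0.19 among knockout and 0.86 among ApcMin/+ libraries. The ApcMin/+ SD was the larger one for 9 of the 10 transporters, all but Slc1a5, and for 61.8% of tested genes. The deposited values had been adjusted by the authors for differences among replicates, which can lower such SDs by an unknown amount, and no test of the spread was made. They held almost no deviation that sets ApcMin/+ replicates 1 and 2 against 3 and 4, which limits the orders of libraries that can occur.

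The low ApcMin/+ libraries, replicates 2 and 3, are those with high Xist. They were lower than the low-Xist replicates 1 and 4 by over 1 on the log2 scale for 6 of 10 transporters, against 1008 of 17523 tested genes (5.75%). The mean of the high-Xist pair was 502 for Slc2a2, against 2812 in the low-Xist pair, with a 5.66-fold gap by mean log2 levels. For Slc6a19 it was 1143, against 6364, for Slc5a1 7894, against 29197, and for Slc2a5 843, against 3650. Slc15a1 and Slc3a1 also passed 1 on this scale, and Slc7a9 came close, with a log2 difference of -0.88. The unnumbered knockout library, the only knockout library with high Xist, went the other way, since it was the highest knockout library for 8 of the 10 genes and the second highest for Slc5a1 and Slc7a5. ApcMin/+ replicates 1 and 2 share a sequencing order with all knockout libraries and replicates 3 and 4 come from another, so each order holds 1 ApcMin/+ library of either Xist level.

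Within the 5 low-Xist libraries, 3 knockout against 2 ApcMin/+, the log2 difference was below 0 for 10737 of 17523 tested genes, with a median of -0.125. It was below 0 for all 7 uptake genes. Limma called 2 of the 10 transporters lower in this smaller set, Slc2a5 (log2 difference -1.26, SE 0.21, 95% interval -1.74 to -0.79, adjusted p = 0.0157) and Slc5a1 (-0.73, SE 0.18, 95% interval -1.13 to -0.32, adjusted p = 0.0386). The means were 1484 in knockout and 3650 in ApcMin/+ for Slc2a5, and 17452 in knockout and 29197 in ApcMin/+ for Slc5a1. In the same fit 1481 of 17523 tested genes (8.45%) were called lower and 713 (4.07%) higher, 12.5% in all, with 3 residual degrees of freedom. The direction that normalisation had removed over all 8 libraries was not a covariate in this fit, since no direction among these 5 libraries was under the limit. With it added, an alternative chosen after the data were seen that leaves 2 residual degrees of freedom, limma gave -1.24 for Slc2a5 (adjusted p = 0.00692) and -0.71 for Slc5a1 (adjusted p = 0.0355), and again called 2 of the 10. Of all 17523 tested genes, 1695 were called with that covariate, 1137 of them lower. Slc15a1 (-0.58, limma adjusted p = 0.0853), Slc7a9 (-0.40, limma adjusted p = 0.0836), Slc2a2 (-0.38, limma adjusted p = 0.188), Slc6a19 (-0.47, limma adjusted p = 0.214) and Slc3a1 (-0.25, limma adjusted p = 0.257) did not pass. The growth genes gave -0.30 for Slc3a2, -0.14 for Slc1a5 and 0.20 for Slc7a5, none of which passed.

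Marker genes of several cell types followed the same split. The summed level of 20 enterocyte markers was 494659 to 731837 in knockout libraries and 703823, 313010, 296179 and 898442 in ApcMin/+ libraries, so replicates 2 and 3 were the lowest of all here too, and 9 of the 20 markers were lower there than in replicates 1 and 4 by over 1 on the log2 scale. The 9 goblet markers summed to 251718 to 313513 in knockout libraries and to 427816, 145298, 174789 and 399870 in ApcMin/+ libraries. The 9 markers of the proximal small intestine summed to 30711 to 71462 in knockout libraries and 71511, 32921, 27898 and 129307 in ApcMin/+ libraries, and 7 of the 9 were lower by over 1 in the high-Xist ApcMin/+ pair. The 8 distal markers summed to 18776 to 26850 in knockout libraries and 32456, 10366, 12476 and 26850 in ApcMin/+ libraries. Replicates 2 and 3 were thus the lowest of all for distal markers too, and 4 of the 8 were lower by over 1 in the high-Xist pair. Fabp6, the bile acid binding protein of the ileum, was at 4 to 18 in knockout and 3 to 30 in ApcMin/+ libraries. The 13 stem cell and Wnt genes ran the other way, at 74478 to 84452 in knockout libraries and at 66998, 99683, 91511 and 70448 in ApcMin/+ libraries, and 0 of the 13 were lower by over 1 in the high-Xist pair. The 14 stromal markers summed to 58836 to 109798 in knockout libraries and 47010 to 62219 in ApcMin/+ libraries. The 8 Paneth markers summed to 81094 to 120748 in knockout libraries and 40506 to 79133 in ApcMin/+ libraries, without overlap. Much of that sum is Lyz1, at 35051 to 57724 in knockout and 13564 to 31310 in ApcMin/+ libraries. Ang4 went the other way, at 242 to 544 and 643 to 2774. The mean log2 level of the 8 overlapped, at 11.87 to 12.8 in knockout and 10.95 to 12.53 in ApcMin/+ libraries. The 15 leukocyte markers in the sheet summed to 4504 to 7791 in knockout libraries and 3385 to 5507 in ApcMin/+ libraries. No gene of these lists passed between genotypes over all libraries. In the low-Xist libraries alone, limma called 7 of 14 stromal markers higher in knockout (median log2 difference 0.92), 5 of 13 stem cell and Wnt genes (0.26) and 3 of 8 Paneth markers (1.07), and none of these lower. In the same libraries it called 3 of 9 proximal markers lower in knockout (median -1.13, all 9 below 0), 2 of 20 enterocyte markers (-0.33, 18 below 0), 2 of 9 goblet markers (-0.30) and 1 of 8 distal markers (-0.21), and none of these higher. Of 13 leukocyte markers 1 was called higher and 1 lower. Of all 17523 tested genes 10737 were below 0 in these libraries. The part of cell content or gut position in the transporter values was not tested.

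By the rule for named genes, the smallest p values in the marker lists belonged to Fabp2 (log2 difference 0.97) and Apob (0.57) among enterocyte markers, Fads1 (-0.19) and Pdx1 (-1.05) among proximal, and Cubn (1.48) among distal markers. Among goblet markers they were Clca1 (-2.01) and Atoh1 (0.55), among Paneth markers Lyz1 (1.25) and Ang4 (-1.90), and among stem cell and Wnt genes Olfm4 (1.44) and Ascl2 (-0.68). For leukocytes they were S100a8 (2.81) and S100a9 (1.68) and for stroma Col1a2 (0.89) and Col3a1 (0.87). Their limma adjusted p values ran between 0.0817 (Olfm4) and 0.504 (Pdx1).

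**Figure D3:**
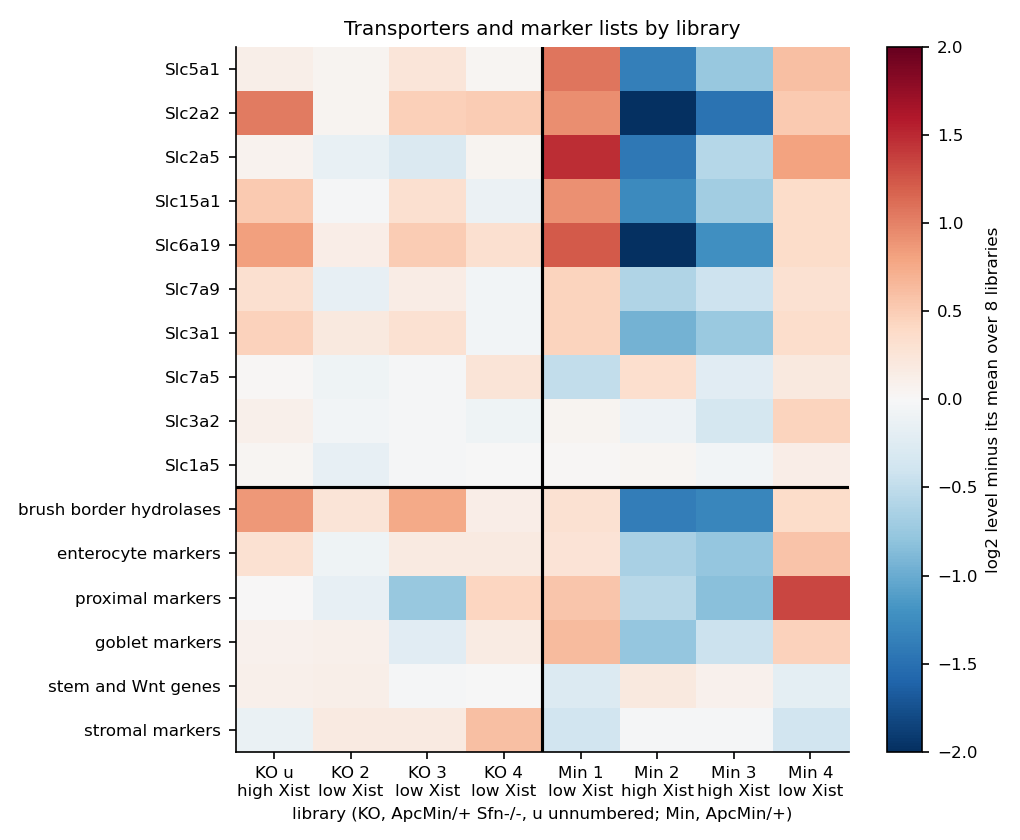
Log2 level of each transporter gene (upper 10 rows) and mean log2 level of each marker list (lower rows) in each library, minus the mean of that row over 8 libraries; the 4 knockout (KO) libraries are at the left and the 4 ApcMin/+ (Min) libraries at the right, and colours end at 2 and -2. The 7 uptake genes, brush border hydrolases, enterocyte, proximal and goblet markers are blue in ApcMin/+ replicates 2 and 3. Slc7a5, Slc3a2 and Slc1a5 are paler in those ApcMin/+ libraries. Proximal markers are also blue in knockout replicate 3, and Slc7a5 in ApcMin/+ replicate 1.

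Ratios between transporter genes take out only what moves both members of a pair by the same fold, and 4 were compared. The ratio of Slc5a1 to Slc2a2, apical over basolateral sugar carrier, was 5.04, 9.59, 8.11 and 6.95 in knockout libraries, against 10.6, 15.6, 15.8 and 10.1 in ApcMin/+ libraries. Within ApcMin/+ this ratio was higher in replicates 2 and 3, the high-Xist pair, than in replicates 1 and 4. The groups did not overlap, and the log2 ratio averaged 2.85 ± 0.39 in knockout and 3.67 ± 0.35 in ApcMin/+ adenomas (SD, n = 4 each), a difference of -0.82. The two-sided exact permutation test gave p = 0.0286, the smallest that 70 arrangements allow, and 0.114 after Benjamini-Hochberg adjustment over the 4 ratios. With only 1 ratio at that smallest p, the adjusted value could not fall under 0.05, so the missed threshold decides nothing. In the low-Xist libraries alone the difference was -0.35 (adjusted exact permutation p = 0.267). There 3 against 2 libraries allow no p under 0.05 by this test.

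The light to heavy chain ratio of the cystine carrier, Slc7a9 to Slc3a1, was 1.11, 0.96, 1.11 and 1.24 in knockout libraries, against 1.24, 1.57, 1.54 and 1.19 in ApcMin/+ libraries. It was highest in ApcMin/+ replicates 2 and 3, where both genes were low and Slc3a1 the more so, and the groups overlapped (log2 difference -0.32, exact permutation p = 0.0571, adjusted 0.114). The ratio of Slc2a5 to Slc5a1, fructose over glucose carrier, was 0.0971, 0.0867, 0.0693 and 0.102 in knockout libraries, against 0.133, 0.0962, 0.114 and 0.114 in ApcMin/+ libraries, with a log2 difference of -0.37 (exact permutation p = 0.0857, adjusted 0.114). The LAT1 pair, Slc7a5 to Slc3a2, gave 0.467, 0.482, 0.494 and 0.629 in knockout libraries, against 0.336, 0.663, 0.535 and 0.415 in ApcMin/+ libraries, with a log2 difference of 0.12 (exact permutation p = 0.6, adjusted 0.6). This ratio was lowest in ApcMin/+ replicate 1 and highest in ApcMin/+ replicate 2.

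**Figure D4:**
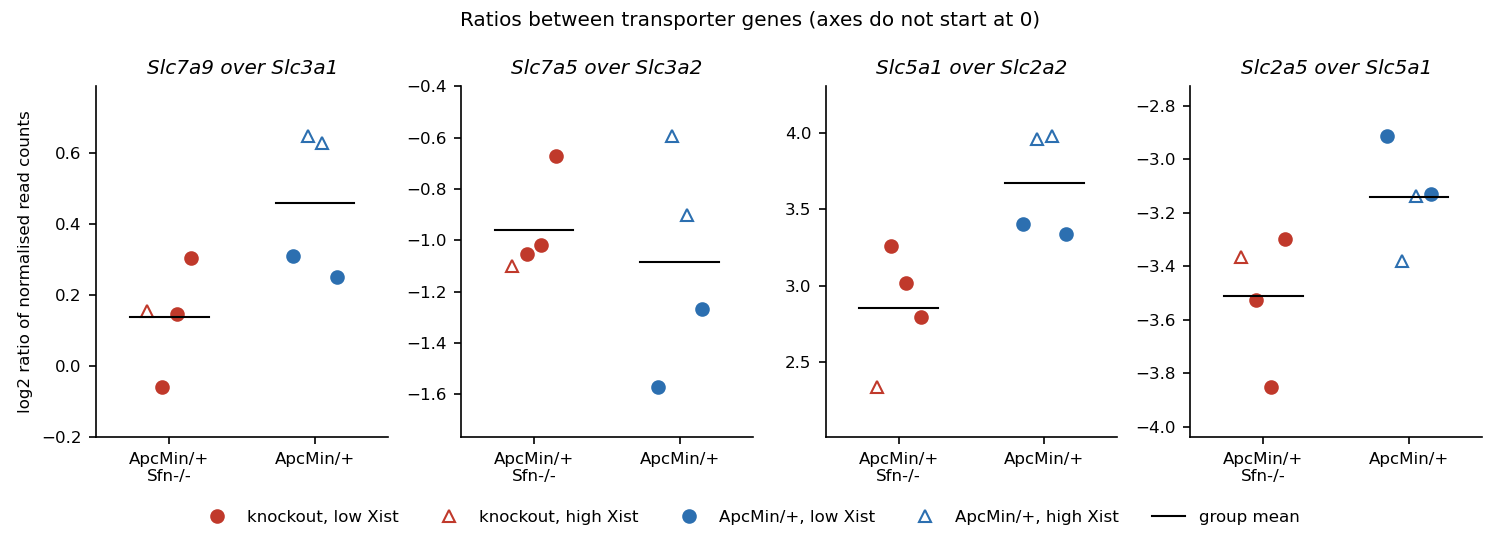
Log2 ratio of normalised read counts of 4 gene pairs in each library, with knockout (ApcMin/+ Sfn-/-) at the left and ApcMin/+ at the right of each panel; lines are group means, triangles mark high-Xist libraries, and the axes do not start at 0. The groups are apart for Slc5a1 over Slc2a2 (2.33 to 3.26 in knockout and 3.34 to 3.98 in ApcMin/+) and overlap for the other 3.

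Levels were compared between genes per kilobase of merged exon. In knockout adenomas Slc5a1 led, with 4250 ± 271.6 normalised read counts per kilobase, followed by Slc3a2 with 1468 ± 87.5 and Slc1a5 with 1014 ± 58.4 (SD, n = 4). Slc6a19, Slc3a1, Slc7a9, Slc7a5 and Slc15a1 came next, between 973.2 and 646.3 per kilobase, and each overlapped its neighbour in this order. Slc2a5, with 451.4 ± 53.0, and Slc2a2, with 431.2 ± 122.9, came last and overlapped each other, and every library of Slc2a5 lay below every library of Slc15a1. In ApcMin/+ adenomas the same 3 genes led, Slc5a1 with 4519 ± 3156, Slc3a2 with 1525 ± 358.6 and Slc1a5 with 1067 ± 57.6 per kilobase (SD, n = 4), and Slc2a2 was again last, with 287.9 ± 238.6. There Slc5a1 overlapped Slc3a2, Slc3a2 did not overlap Slc1a5, and all later neighbours overlapped.

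Among tested genes with a mean log2 level of at least 5 (14838 genes), the profile over 8 libraries nearest to that of Slc5a1, by the root mean square difference of centred log2 levels, was that of Smim24 at 0.17, followed by Slc15a1 at 0.19 and Gm11127 at 0.21. Slc2a5 ranked 13 and Slc3a1 ranked 50 in this list, ahead of Slc7a9 at rank 195, Slc6a19 at 329 and Slc2a2 at 801. Slc3a2, Slc1a5 and Slc7a5 ranked 2034, 5679 and 11880 in the likeness to Slc5a1. The genes nearest to Slc7a5 were Mybbp1a at 0.08, which had 7479 to 8241 normalised read counts in knockout and 6004 to 9757 in ApcMin/+ libraries, Zbtb25 at 0.09 and Mthfd1l, an enzyme of mitochondrial folate metabolism, at 0.09. Its own heavy chain partner Slc3a2 ranked 5632 and Slc1a5 ranked 2626.

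Other carriers of the same substrates gave no call between genotypes either. Of 17 other sugar transporters tested 0 passed in either direction, 10 lay above 0 and the median log2 difference was 0.11. The smallest p among them belonged to Slc2a13, a proton-coupled inositol carrier, with 99, 136, 159 and 127 normalised read counts in knockout libraries, against 65, 57, 70 and 49 in ApcMin/+ libraries, without overlap (log2 difference 1.09, limma adjusted p = 0.102). Slc2a3, the glucose carrier GLUT3, gave 0.61 (limma adjusted p = 0.245), and Slc5a4b, a relative of SGLT1, 1.42 (limma adjusted p = 0.221). Reads of Slc5a4b and its relative Slc5a4a could have been split between them, which was not tested. Slc2a1, the widespread glucose carrier GLUT1, had 5103 to 7050 in knockout and 4302 to 5481 in ApcMin/+ libraries, and its log2 difference of 0.31 did not pass (limma adjusted p = 0.253), a gene chosen after its values were seen.

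Of the 3 other peptide transporters tested, 0 passed. Slc15a3, a lysosomal carrier of histidine and dipeptides, had 401, 477, 318 and 350 normalised read counts in knockout libraries, against 144, 299, 195 and 250 in ApcMin/+ libraries, without overlap (log2 difference 0.83, limma adjusted p = 0.156). Its lysosomal relative Slc15a4 gave -0.14 (limma adjusted p = 0.643), and Slc15a2, the high-affinity carrier PEPT2, -0.60 (limma adjusted p = 0.747). Of 33 other amino acid transporters 0 passed, 21 lay above 0, and the median was 0.20. Slc6a9, the glycine carrier GlyT1, had 1527, 1433, 1496 and 1549 in knockout libraries, against 2554, 1698, 1835 and 2458 in ApcMin/+ libraries, without overlap (log2 difference -0.49, limma adjusted p = 0.160). The low gene Slc6a15, a carrier of branched-chain amino acids and proline, gave -1.74 (limma adjusted p = 0.187) from values of 1 to 11 in knockout and 10 to 23 in ApcMin/+ libraries, and the amino acid carrier Slc36a4 gave 0.46 (limma adjusted p = 0.221).

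Partners of the carriers, such as scaffold proteins, the sodium pump and enzymes of fructose and glucose metabolism, gave 0 calls among 10 tested genes. Of these, 8 lay above 0, with a median of 0.43. In the low-Xist libraries 6 of the 10 lay below 0, with a median of -0.198. Within ApcMin/+, 5 of the 10 were lower by over 1 on the log2 scale in the high-Xist pair than in the low-Xist pair. Rsc1a1, a regulator of SGLT1, had 575, 302, 481 and 365 normalised read counts in knockout libraries, against 106, 211, 92 and 290 in ApcMin/+ libraries, without overlap (log2 difference 1.41, limma adjusted p = 0.138). This gene lies within Ddi2 on the same strand, so reads of the host gene could be counted in it. G6pc, which frees glucose from its phosphate, gave 1.78 (limma adjusted p = 0.165), and the scaffold gene Pdzk1 1.69 (limma adjusted p = 0.332).

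The 13 brush border hydrolases, which release the sugars, peptides and amino acids that the uptake carriers take in, also gave 0 calls. All 13 lay above 0, against 7178 of 17523 tested genes. Their median log2 difference was 0.77 over all libraries and -0.01 in the low-Xist libraries. Sis, sucrase-isomaltase, had 27473, 29220, 42778 and 21234 normalised read counts in knockout libraries, against 12312, 2662, 4571 and 6806 in ApcMin/+ libraries, without overlap (log2 difference 2.37, limma adjusted p = 0.0817). Enpep, an aminopeptidase, gave 1.61 (limma adjusted p = 0.137) and Mgam, maltase-glucoamylase, 0.86 (limma adjusted p = 0.221). Sis and Slc5a1 thus differed in pattern between genotypes. Every knockout library was above every ApcMin/+ library for Sis, whereas ApcMin/+ replicates 1 and 4 were above every knockout library for Slc5a1. Within ApcMin/+ the replicates had the same order from high to low for both genes. Of the 13 hydrolases, 9 were lower by over 1 on the log2 scale in the high-Xist ApcMin/+ pair than in the low-Xist pair.

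Slc7a5 and Slc3a2 are also targets of ATF4, the factor of the amino acid response, and 25 genes of that response were examined beside them. None passed, 11 lay above 0 and 14 below, the median log2 difference was -0.07, and 0 of the 25 were lower by over 1 in the high-Xist ApcMin/+ pair. Their summed level was 59787 to 63108 in knockout libraries and 54751 to 78960 in ApcMin/+ libraries. Asns, asparagine synthetase, had 3038 to 3624 in knockout libraries and 2205 to 4362 in ApcMin/+ libraries, chosen after its values were seen. The smallest p values of this list belonged to Vldlr (log2 difference 0.40, limma adjusted p = 0.150), a lipoprotein receptor, Sesn2 (-0.32, limma adjusted p = 0.252), a leucine sensor, and Ddit3 (-0.46, limma adjusted p = 0.298), the stress factor CHOP.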

How the data were processed

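RNA-seq of 8 mouse small intestine adenomas was read from 1 sheet of normalised read counts, here treated as score values, which the authors deposited as whole numbers after RUVs (a method that removes unwanted factors estimated among replicates), per the file headers, and which are therefore not raw counts. Strand-specific libraries were made from total RNA, per the labels' protocols, and the submitters' processing notes name mm10. Aligner and counting method: not given in the sources used here. All sample columns belong to the series. Left out were 27 rows whose names are dates.

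Deviations from the genotype means (12052 genes with all values at 100 or above) had singular values of 53.8, 32.0, 28.3, 23.3, 18.9 and 0.0954. The direction under 0.1 of the largest, which sets ApcMin/+ replicates 1 and 2 against 3 and 4, entered the model as a covariate, leaving 5 residual degrees of freedom. Genes reaching 10 in 4 or more libraries were tested with limma 3.58.1 in R 4.3.3 (lmFit, eBayes with trend) on log2(value + 1), a scale that understates changes of low genes, with Benjamini-Hochberg adjustment and a threshold of 0.05. Ratios and Sfn were tested by exact permutation in Python 3.11.15, which treats the libraries as exchangeable. The model was tested on simulated data.

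Positions and exon lengths are from GENCODE M21 on GRCm38, promoters from RefSeq. Named from each other list were the tested genes with the smallest p (3 for transport lists, 2 for cell lists), apart from genes said to be chosen later; 1 gene that this rule names is not reported here. The members and lists were chosen with earlier results of these data known. Alternatives were pseudocounts, filters, scalings, sequencing order, array weights, robust eBayes, Xist as a covariate, low-Xist libraries alone and leaving out each library.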

Additional observations from a re-analysis of the deposited data

Results flagged for a closer look

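For 7 of the 10 transporters the knockout library with high Xist lay above both ApcMin/+ libraries with high Xist, while the 3 knockout libraries with low Xist lay below both ApcMin/+ libraries with low Xist. The genotype difference in the high-Xist libraries minus that in the low-Xist libraries, on the log2 scale, was 1.91 for Slc5a1, 3.20 for Slc2a2, 2.34 for Slc2a5, 2.09 for Slc15a1, 1.23 for Slc7a9, 1.56 for Slc3a1 and 0.63 for Slc3a2. For Slc2a2 it was made of 2.81 in the high-Xist and -0.39 in the low-Xist libraries, and for Slc2a5 of 1.07 and -1.27. An interaction term, added after the data were seen, did not pass for any of them by limma, with adjusted p between 0.0533 (Slc2a2) and 0.298 (Slc3a2). In that fit 0 of 17523 genes passed and 2673 had an unadjusted p under 0.05, with 3 residual degrees of freedom and only 1 knockout library with high Xist, the unnumbered one. Slc6a19 gave 3.00 (limma adjusted p = 0.0684), with overlapping low-Xist libraries. No library stood apart from the rest of its group for a transporter or a ratio by Dixon's criterion, over 28 groups tried.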

How the results depend on the processing

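The count of transporters called was 0 under 20 of 22 alternatives and 2 in the low-Xist libraries, both without and with the direction removed over 8 libraries as a covariate. Of all 17523 tested genes, 2194 were called there without that covariate and 1695 with it. In the low-Xist libraries the sign turned for Slc5a1 (-0.73), Slc2a2 (-0.38), Slc15a1 (-0.58), Slc6a19 (-0.47), Slc7a9 (-0.40) and Slc3a1 (-0.25), and Slc5a1 and Slc2a5 (-1.26) passed the threshold. With the covariate these were -0.71, -0.37, -0.57, -0.45, -0.39, -0.24 and -1.24, in the same gene order. Slc5a1 gave -0.05 with Xist as a covariate. Array weights gave 0.069 for Slc2a5 and -0.014 for Slc7a5. Slc3a2 gave 0.033 with median-ratio scaling, 0.039 with quantile normalisation, and 0.006 both with sequencing order as a covariate and in the shared order alone. Over the 8 leave-one-out fits the log2 difference ranged between -0.20 (without ApcMin/+ replicate 2) and 0.62 for Slc5a1, between -0.65 and 0.32 (without replicate 1) for Slc2a5, which was also above 0 without replicate 4 (0.095), between -0.023 (without replicate 2) and 0.71 for Slc15a1, between -0.047 (without replicate 2) and 0.31 for Slc7a9, between -0.053 (without replicate 1) and 0.22 for Slc7a5, and between -0.15 and 0.11 (without replicate 4) for Slc3a2. It stayed above 0, at 0.53 to 1.53 for Slc2a2, 0.33 to 1.46 for Slc6a19 and 0.21 to 0.68 for Slc3a1, each lowest without replicate 2 and highest without replicate 1. The log2 ratio of Slc7a5 to Slc3a2 ranged between -0.039 (without ApcMin/+ replicate 1) and 0.29. In the low-Xist libraries the log2 ratios gave 0.51 for Slc7a5 to Slc3a2, -0.35 for Slc5a1 to Slc2a2, -0.15 for Slc7a9 to Slc3a1 and -0.54 for Slc2a5 to Slc5a1. None could pass, since exact permutation of 3 against 2 libraries allows no p under 0.05. The sign of Slc1a5 held under all 22 alternatives (-0.14 to -0.01). The cause of these turns was not tested.

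Calls in the other lists, 0 over all libraries, were 6 among amino acid transporters in the low-Xist libraries (3 higher, 3 lower), 2 among hydrolases (1 higher, 1 lower), 2 among amino acid response genes (both lower) and 1 sugar transporter (higher), where 12.5% of all genes were called. With the covariate there they were 4, 2, 2 and 2, and 2 among partners, where 1695 of 17523 tested genes were called. Hydrolases had 1 call without ApcMin/+ replicate 1, without replicate 2 and with the removed direction not counted, sugar transporters 1 with that direction not counted, and partners 1 without replicate 4. Over all genes the calls ranged between 13 with array weights and 2194 in the low-Xist libraries, with 426 where the removed direction was not counted. No paired analysis was possible because the groups are different mice and their replicate numbers follow accession order. Depth before normalisation is unknown, and a missed threshold at 4 against 4 does not show equal levels.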
